A study of Homo sapiens with 15 samples.

Results

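Accessible chromatin was compared between K562 cells carrying dCas9 and the guide RNA (gRNA) Cr10 and K562 cells carrying dCas9-KRAB without a gRNA. The members were the 3 libraries of each group, chosen by their titles, and made 6 of the 15 libraries of the study. The other 9 libraries carried dCas9 with Cr4, dCas9-KRAB with Cr4 or dCas9-KRAB with Cr10, with 3 libraries each. K562 is a human erythroleukemia line. All groups were made by stable lentiviral transduction with 4 µg/ml polybrene, and selection with 1 µg/ml puromycin began about 96 h later. The first group thus expressed catalytically dead Cas9 with a gRNA aimed at HS2, and the second expressed the fusion of dCas9 to the KRAB repressor domain with nothing to direct it. A label field on the gRNA target names HS2 for the group without a gRNA too, so the titles and the design text were followed. The groups differed in the gRNA and in KRAB at once, and no group held dCas9 without a gRNA, so the contributions of the gRNA and of KRAB cannot be told apart. Transduction was in triplicate per the design text, but nothing ties each numbered library to its own culture, so every p-value here speaks of the spread of these libraries, part of which may be technical.

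HS2 is a DNase I hypersensitive site and erythroid enhancer in the locus control region (LCR) of the beta-globin cluster, which drives the embryonic gene HBE1, the fetal genes HBG1 and HBG2 and the adult genes HBD and HBB. The LCR holds further hypersensitive sites, among which HS3 and HS4 also bind erythroid factors and HS5 binds the insulator protein CTCF, as does 3' HS1 at the other end of the cluster. dCas9 binds DNA through its gRNA without cutting it, and a bound dCas9 can hinder proteins at its site, whereas KRAB recruits co-repressors that lay down repressive histone methylation. The comparison is described as the binding of dCas9 alone at HS2 against an untargeted repressor, but the deposited lists hold nuclease-accessible regions and not the occupancy of dCas9.

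Promoter sequences are shown for 2 genes with a peak in all 6 libraries: HBD, the globin gene for which the reference table had an entry, and TFRC, the transferrin receptor through which erythroid cells take up iron. Both are the 250 bases upstream of the gene's start in RefSeq on GRCh38.p14, on the minus strand, at chr11:5234484-5234733 for HBD and chr3:196082091-196082340 for TFRC. Capitals mark matches on either strand to the GATA-type motif AGATAA, which reads TTATCT on the opposite strand, and to the CCAAT motif, which reads ATTGG there; no matches overlap.
HBD: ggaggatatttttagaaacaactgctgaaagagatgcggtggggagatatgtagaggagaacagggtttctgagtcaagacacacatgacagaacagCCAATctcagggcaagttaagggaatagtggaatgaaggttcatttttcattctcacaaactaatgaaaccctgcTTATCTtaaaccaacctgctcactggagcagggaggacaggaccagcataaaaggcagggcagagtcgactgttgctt
TFRC: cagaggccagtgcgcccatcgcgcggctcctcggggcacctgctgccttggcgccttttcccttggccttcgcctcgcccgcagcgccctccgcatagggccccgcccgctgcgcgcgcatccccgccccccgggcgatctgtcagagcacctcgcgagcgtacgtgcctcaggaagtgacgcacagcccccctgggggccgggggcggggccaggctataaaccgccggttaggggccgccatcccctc
The HBD window held 1 match to each motif and the TFRC window held 0. Of 35116 RefSeq promoter windows of the same length, 9.17% held AGATAA and 32.0% held CCAAT on either strand. A match is a description of the sequence and not evidence of a bound factor.

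The deposited lists held 53147, 67341 and 94777 peaks with dCas9 and Cr10 (71755 ± 21163, SD, n = 3), and 63387, 88368 and 61074 peaks with dCas9-KRAB without a gRNA (70943 ± 15135, n = 3). The groups overlapped (exact permutation test, two-sided, p = 1), and each held a shallow, a middle and a deep library. The median local background was 4.24, 6.90 and 9.78 fragments with dCas9 and Cr10, against 5.98, 9.68 and 4.28 fragments without a gRNA. Total fragment numbers were not given in the sources used here, so depth is judged throughout by this background. With 3 libraries against 3 the smallest exact p is 0.1, so no single value could pass 0.05 by permutation.

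HS2 was accessible in both groups. All 6 lists held a peak there (hg19, chr11:5301766-5302230 over the 15 libraries). The implied summit pileup, that is, the number of fragments over the highest point of the peak as worked out from the authors' fold and p-value columns, was 81, 99 and 160 with dCas9 and Cr10, against 135, 150 and 110 without a gRNA. The groups overlapped: the deepest Cr10 library gave the highest value and the other Cr10 libraries the 2 lowest. Exact Poisson 95% intervals, which cover counting error only, were 64.3 to 101, 80.5 to 121 and 136 to 187 with Cr10, against 113 to 160, 127 to 176 and 90.4 to 133 without a gRNA. Mean raw pileup was 113 ± 41.4 with Cr10 and 132 ± 20.2 without a gRNA (SD, n = 3 each; exact permutation p = 0.5).

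Set beside the library without a gRNA of the nearest median background, a matching chosen after the values had been seen, raw HS2 pileup was lower in 2 of 3 pairs. The shallowest libraries gave 81 fragments with Cr10 against 110 without a gRNA, a log2 ratio of −0.44. The middle libraries gave 99 with Cr10 against 135 without a gRNA, again −0.44, and the deepest gave 160 with Cr10 against 150 without a gRNA, or 0.09. In each pair the counting intervals of the libraries overlapped.

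To place the libraries on 1 scale, log2(pileup + 1) was taken less the library's median over 38888 regions that had a peak in each of the 15 lists. HS2 then stood at 0.87, 0.36 and 0.47 with dCas9 and Cr10, against 1.07, 0.46 and 1.04 with dCas9-KRAB without a gRNA. Here too the groups overlapped, with replicate 2 of the controls among the Cr10 values. In the pairs matched by background, the shallowest libraries stood at 0.87 with Cr10 against 1.04 without a gRNA. The middle pair stood at 0.36 against 1.07 and the deepest at 0.47 against 0.46. The shallowest and middle pairs, equal at −0.44 in raw pileup, were thus not alike on this scale. The difference of means was −0.29 with a limma SE of 0.19 and a 95% interval of −0.68 to 0.10 (exact permutation p = 0.3; limma p = 0.141, adjusted p = 1.00). A decrease to log2 −0.68 and an increase to 0.10 were thus both within the interval, and fewer cells with an open HS2 cannot be told apart from less opening per cell.

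The rank of the HS2 peak within its list gave a value near 0 difference. Rank percentile runs to 100 for the largest fold over local background, with each list shortened to 53098 peaks. It was 69.3, 84.2 and 49.9 with Cr10, against 70.3, 55.7 and 72.6 without a gRNA. Both the highest and the lowest of the 6 ranks belonged to Cr10 libraries, and in each group the deepest library ranked HS2 lowest. The difference was 1.60 percentile points with a limma SE of 12.1 and a 95% interval of −24.1 to 27.3 (exact permutation p = 1; limma adjusted p = 1). It turned to −6.61 without replicate 2 of Cr10 and to −3.66 without replicate 2 of the controls, and was −4.83 when peaks were ranked by the p-value column. The authors' fold itself was 9.05, 11.7 and 7.49 with Cr10, against 9.09, 7.81 and 10.5 without a gRNA (exact permutation p = 1). The local background beside HS2 was 8.06, 7.56 and 20.5 fragments with Cr10, against 14.0, 18.3 and 9.54 fragments without a gRNA (exact permutation p = 0.8). The library with the lowest local background, replicate 2 of Cr10, was also the one with the highest rank.

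**Figure D1:**
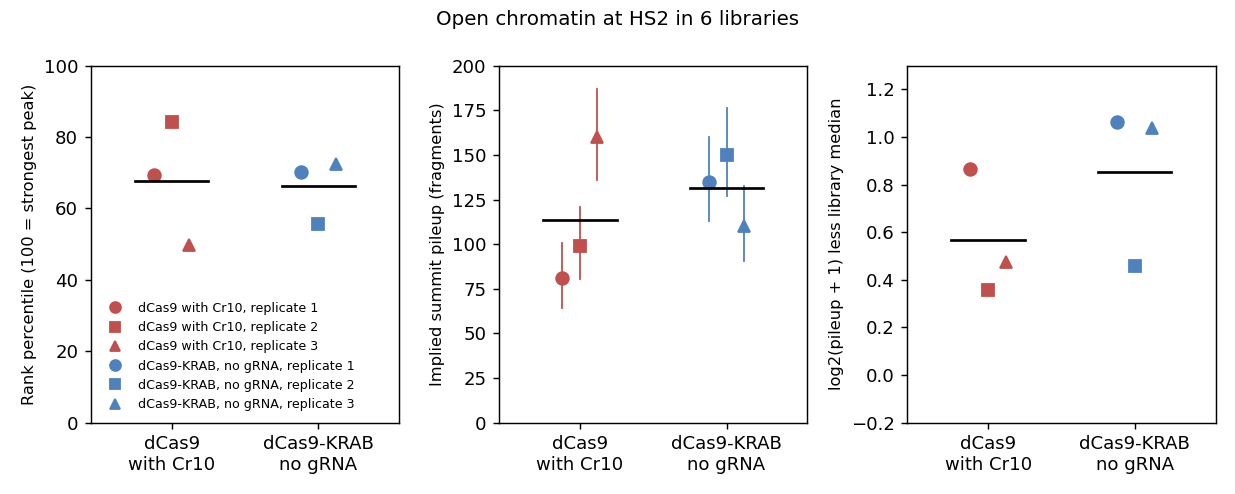
HS2 in the 6 libraries, with dCas9 and Cr10 left of dCas9-KRAB without a gRNA: rank percentile (left), implied summit pileup in fragments with exact Poisson 95% intervals (middle) and log2(pileup + 1) less the library median (right). Points are libraries, black bars are group means, and the groups overlap in every panel.

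The shape of the HS2 peak gave no difference past the spread either. The peak was 422, 444 and 397 bp long with Cr10, against 457, 427 and 412 bp without a gRNA, a difference of −11 bp (exact permutation p = 0.6). Both groups covered nearly the same range of lengths. The summits lay within 22 bp of each other with Cr10 and within 5 bp without a gRNA, with a difference of means of 6.67 bp (exact permutation p = 0.6). The wider spread came from replicate 2 of Cr10, without which the difference was −0.33 bp.

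Around HS2, the other fixed sites of the cluster were open as well. Positions of the named sites were recalled for hg19 and not checked against an annotation. Of the 16 accessible regions between 3' HS1 and HS5, 13 had a peak in all 6 libraries, against 42099 of 106599 regions over the whole lists. A peak in all 15 libraries of the study was found at 11, against 38888 of 120992. In all, 0 of the 16 were in all 3 libraries of one group and absent from the other. Over the whole lists such regions were 0.0441% with Cr10 and 0.0460% without a gRNA, so 16 regions are too few to show a departure from that share. Libraries held 14, 13 and 16 of these regions with Cr10, against 14, 16 and 14 without a gRNA. HBE1, the embryonic gene next to the LCR, had a peak in the deepest library of each group alone, with 52 fragments in replicate 3 of Cr10 and 35 in replicate 2 without a gRNA. HBB, which encodes adult beta-globin, had no peak in its window in any of the 6 libraries. That window was set for the promoter and does not speak for the rest of the gene. Regions outside the named windows, at chr11:5245746-5246501 and chr11:5246781-5247127, lay between 3' HS1 and HBD and had a peak in all 15 libraries. Whether either lies within the HBB gene was not checked, so HBB cannot be called closed. A region outside the named windows, at chr11:5288326-5288665, had a peak in 1 of 3 Cr10 libraries (42 fragments) and in 3 of 3 without a gRNA (15, 34 and 17 fragments). Of the 106599 regions with a peak in the 6 libraries, 1272 had this pattern. The region at chr11:5264258-5264540 went the other way. It had a peak in 2 of 3 Cr10 libraries (19 and 40 fragments) and in 1 of 3 without a gRNA (38 fragments).

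On the scaled log2 pileup, all 9 named sites measured in every library had a lower mean with dCas9 and Cr10, with a median difference of −0.23, against a median of 0.01 over all 38888 regions. The limma test called 0 of the 9, as it called 0% of all regions, and 0 of 9 reached an unadjusted p of 0.05. The same 6 libraries stand behind all 9 sites, which are therefore not replicates of each other. Differences ran from −0.41 at HS3 to −0.08 at HS5. At HS3, the LCR site next to HS2, the libraries stood at 0.64, −0.33 and 0.60 with Cr10, against 0.85, 0.47 and 0.81 without a gRNA. Of the Cr10 values, 2 thus lay among the controls and 1 far below them. The HS3 difference had a limma SE of 0.21 and a 95% interval of −0.83 to 0.02 (limma p = 0.0600, adjusted p = 1.00; exact permutation p = 0.3).

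HS1, the LCR site nearest to HBE1, stood at 0.09, −0.89 and 0.33 with Cr10, against −0.05, −0.08 and 0.58 without a gRNA, a difference of −0.31 (exact permutation p = 0.6). HS4 stood at 0.18, −0.76 and 0.19 with Cr10, against 0.11, −0.17 and 0.37 without a gRNA, a difference of −0.24 (exact permutation p = 0.7). HS5 had the lowest pileup of the LCR sites, at −0.40, −1.59 and −0.54 with Cr10, against −0.93, −0.85 and −0.51 without a gRNA (difference −0.08, exact permutation p = 0.9). At all 3 sites, replicate 2 of Cr10 was the lowest library and the other Cr10 libraries lay among the controls or above them. The insulator site 3' HS1 differed by −0.18, with means of 0.01 ± 0.20 with Cr10 and 0.19 ± 0.38 without a gRNA (SD, n = 3 each; exact permutation p = 0.6).

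Among the globin genes, the fetal HBG2 window stood at 0.60, −0.40 and 0.38 with Cr10, against 0.15, 0.33 and 0.43 without a gRNA (difference −0.11, exact permutation p = 0.9). HBG1, its near-identical neighbour, differed by −0.23 (exact permutation p = 0.4), and both values are uncertain because how reads shared by near-identical copies were placed is not given in the sources used here. HBD, the delta-globin gene whose promoter is printed above, varied least, at −0.17, −0.31 and −0.12 with Cr10, against −0.05, −0.21 and −0.05 without a gRNA. Its difference was −0.09 with a 95% interval of −0.41 to 0.22 (exact permutation p = 0.3).

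One library decided the sign at several of these sites. Replicate 2 of Cr10 was the lowest of the 6 at 8 of the 9 sites, and the lowest at 20.3% of all 38888 regions. Without it, the differences were 0.06 at HS1, 0.08 at HS4, 0.29 at HS5, 0.18 at HBG2 and 0.02 at HBG1, while HS2 stood at −0.18, HS3 at −0.09, 3' HS1 at −0.06 and HBD at −0.04. Its local background at the 9 sites had a median of 0.881 times the library's own median background, against 1.54 to 1.79 times in the other 5 libraries. What set this library apart at the cluster was not tested. To set HS2 against its neighbours within a library, a choice made after the values had been seen, the mean of HS1, HS3 and HS4 was subtracted from its log2 pileup. This left 0.56, 1.02 and 0.10 with Cr10, against 0.76, 0.38 and 0.45 without a gRNA, a difference of 0.03 (exact permutation p = 1). HS2 exceeded the mean of its neighbours in 6 of 6 libraries, most and least so in Cr10 libraries.

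**Figure D2:**
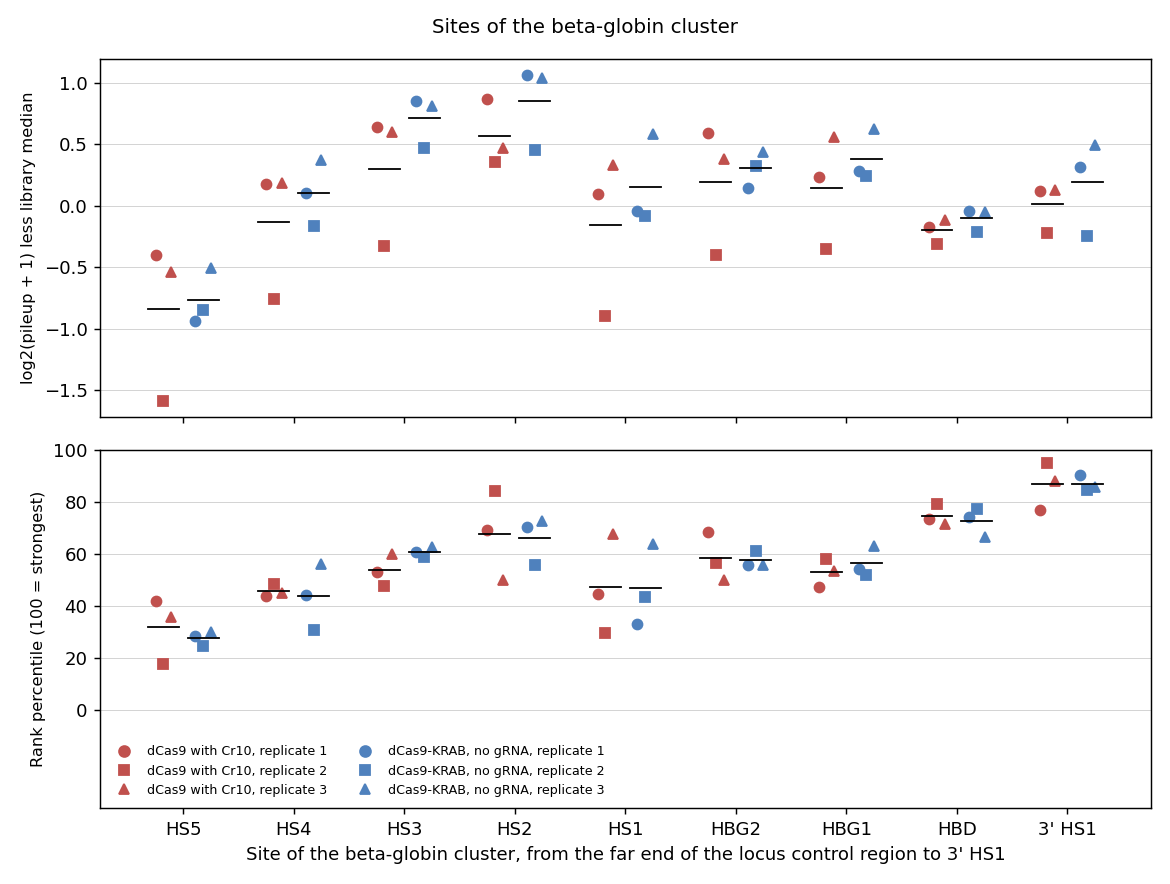
Scaled log2 pileup (upper panel) and rank percentile (lower panel) at the 9 sites of the beta-globin cluster, with dCas9 and Cr10 in red left of dCas9-KRAB without a gRNA in blue. Symbols give the replicate number and bars the group means; the red square, replicate 2 of Cr10, is the lowest of the 6 libraries at 8 of 9 sites in the upper panel.

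On ranks, the same 9 sites divided into 6 with a higher and 3 with a lower mean with Cr10, with a median difference of 0.866 percentile points against −0.05 over all 62858 regions tested. Differences ran from −7.00 at HS3 to 4.09 at HS5, and 0 of 9 were called, as were 0% of all regions. HS3 ranked at 53.0, 47.8 and 60.0 with Cr10, against 60.5, 58.6 and 62.7 without a gRNA (limma 95% interval −27.8 to 13.8; exact permutation p = 0.2). The 2 measures gave opposite signs at 6 of the 9 sites, HS2 among them.

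**Figure D3:**
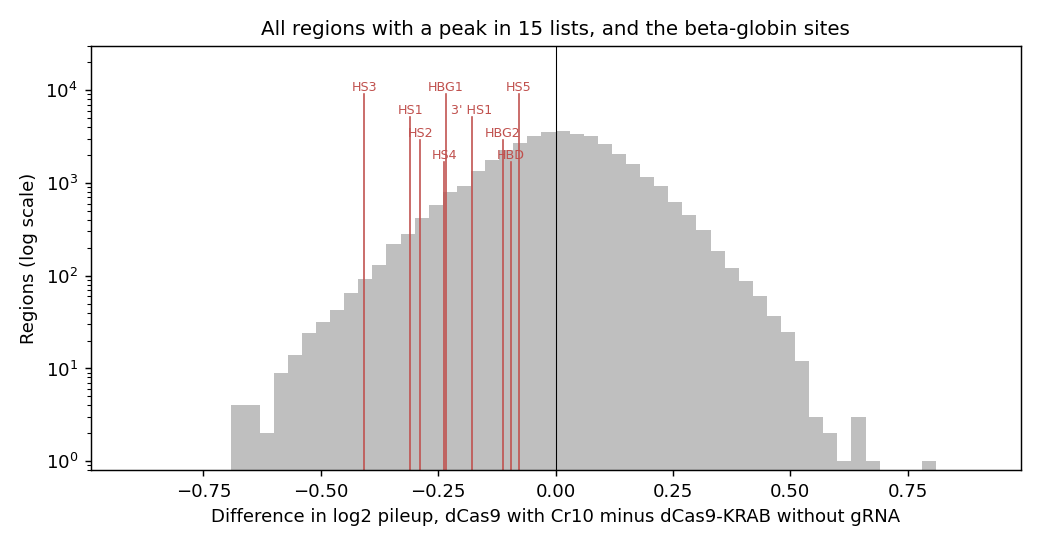
Histogram, on a log axis, of the difference in scaled log2 pileup (dCas9 with Cr10 minus dCas9-KRAB without a gRNA) over 38888 regions, with the 9 beta-globin sites as red lines. All 9 lie left of 0, between −0.41 and −0.08, inside the range of the other regions.

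Away from the cluster, peaks stood in all 6 libraries at GATA1 and TAL1, which encode erythroid transcription factors, at KLF1, at TFRC and at HS-40, the distant enhancer of the alpha-globin genes. The window at BCL11A, a repressor of fetal globin, held no peak in the 6 libraries, and ALAS2, the erythroid enzyme that starts heme synthesis, had one in the deepest library of each group alone (47 fragments with Cr10 and 36 without a gRNA). Of 17 windows outside the cluster measured by pileup, excluding RNU6-1 and ZNF10, 6 had a higher and 11 a lower mean with Cr10, with a median of −0.05, and 0 were called. By rank, 6 of 16 were higher and 10 lower, with 0 called.

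HBZ, the embryonic alpha-like globin gene, had the lowest unadjusted p of these windows. The values are of chr16:203781-204771, the region of the window with the highest mean over the 15 libraries. Its scaled log2 pileup was −0.03, 0.17 and 0.12 with Cr10, against 0.65, 0.16 and 0.43 without a gRNA. Another peak was the strongest in the window in Cr10 replicates 1 (chr16:202505-202810, 34 fragments) and 3 (chr16:202496-202913, 144 fragments). The difference between the groups at that other peak is not given here. Replicate 2 of the controls lay within the Cr10 values, so the groups overlapped. The difference of −0.33 had a 95% interval of −0.65 to −0.01 (limma p = 0.0437, adjusted p = 1.00; exact permutation p = 0.2). HS-40 stood at 0.98, 1.10 and 1.03 with Cr10, against 1.31, 0.91 and 1.26 without a gRNA, a difference of −0.12 (exact permutation p = 0.4). HBA1 and HBA2, the near-identical alpha-globin genes, differed by −0.05 and −0.09, with the same uncertainty.

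GFI1B, a repressor needed in erythroid and megakaryocyte development, was the window of these 17 whose groups did not overlap. It stood at 0.32, 0.42 and 0.25 with Cr10, against 0.04, 0.16 and 0.20 without a gRNA. The difference of 0.19 was not called (limma adjusted p = 1.00; exact permutation p = 0.1, the smallest possible), and 2.27% of all regions were likewise higher in every Cr10 library. Its ranks overlapped, at 50.4, 53.5 and 22.1 with Cr10, against 37.4, 33.9 and 41.7 without a gRNA. LMO2, which encodes a partner of TAL1, had the largest positive difference, 0.29 (95% interval −0.07 to 0.66; limma adjusted p = 1.00; exact permutation p = 0.2). Its values are of chr11:33891940-33892538. Elsewhere in the window lay the strongest peak of Cr10 replicate 1 (31 fragments) and of control replicates 1 and 3 (42 and 32 fragments). The difference between the groups there is not given here. MYB, GATA2, GATA1, TAL1, NFE2, KLF1 and TFRC lay between −0.11 and 0.13.

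TFRC, whose promoter is printed above, ranked at 97.3, 97.3 and 91.1 with Cr10, against 97.1, 94.4 and 97.8 without a gRNA, among the strongest peaks of every list, and its pileup differed by −0.07. At the BCR and ABL1 promoters, the partners of the fusion gene amplified in K562, pileup differed by 0.03 and −0.02. The housekeeping genes GAPDH and ACTB differed by −0.13 and 0.05.

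Lentiviral CRISPR vectors often carry a U6 promoter and, in dCas9-KRAB, the KRAB domain of ZNF10, so the human loci of these elements were read separately. RNU6-1, a U6 small nuclear RNA gene, stood at 0.32, 0.68 and 0.26 with dCas9 and Cr10, against 0.24, 0.18 and 0.10 with dCas9-KRAB without a gRNA. The groups did not overlap, by a margin of 0.26 against 0.24, as in 2.27% of all regions. The difference of 0.24 had a 95% interval of −0.02 to 0.50 (limma p = 0.0686, adjusted p = 1.00; exact permutation p = 0.1). Means at RNU6-1 in the other groups, all with a gRNA, were 0.28 ± 0.06 for dCas9 plus Cr4, 0.45 ± 0.07 for dCas9-KRAB plus Cr4 and 0.52 ± 0.07 for dCas9-KRAB plus Cr10 (SD, n = 3 each). The lowest of these 9 libraries, at 0.21, lay below the highest library without a gRNA. ZNF10 differed by 0.24, with overlapping groups (exact permutation p = 0.4). Whether vector sequence added fragments at these loci was not tested.

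**Figure D4:**
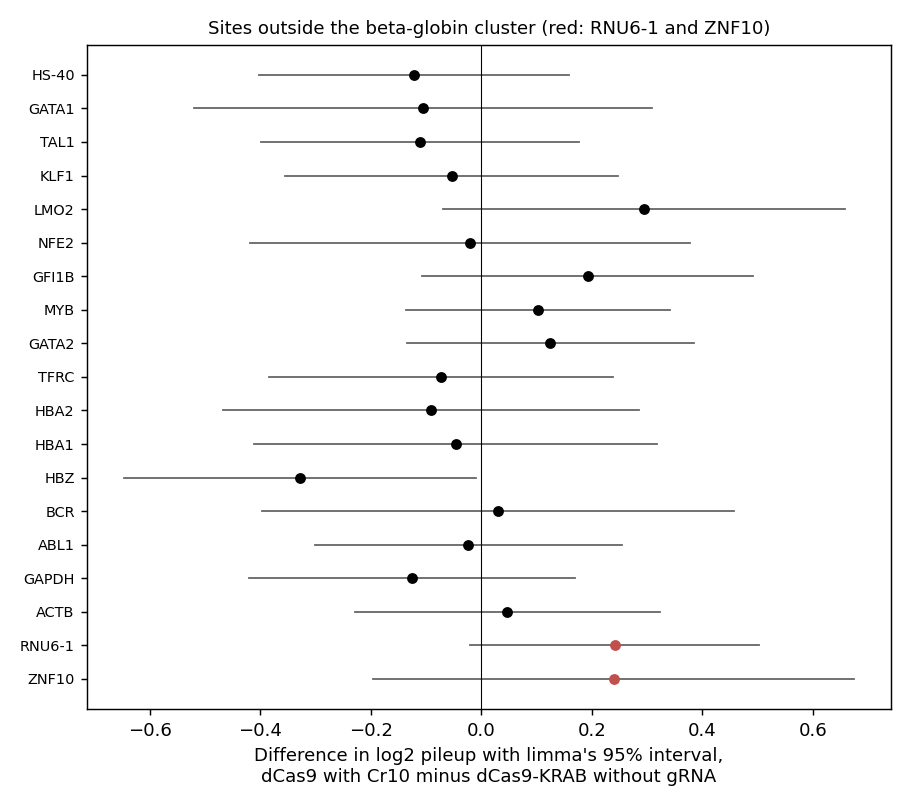
Difference in scaled log2 pileup (dCas9 with Cr10 minus dCas9-KRAB without a gRNA) with limma's 95% interval at windows outside the beta-globin cluster; red points mark RNU6-1 and ZNF10. The interval at HBZ, −0.65 to −0.01, is the one that leaves out 0.

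Across the whole lists, limma called 0 of 62858 regions by rank and 0 of 38888 by pileup at an adjusted p of 0.05. At an unadjusted p of 0.05, 1868 regions (2.97%) passed by rank, 935 higher and 933 lower with Cr10, and 423 (1.09%) passed by pileup, 215 higher and 208 lower. Both shares were below the fraction of 0.05 that this threshold would pass if no region differed. Calling 0 regions does not show that the groups were alike. The lowest adjusted p was 1 by rank and 1.00 by pileup. Without replicate 3 of Cr10, 1 region was called by rank. The middle 95% of regions differed by −17.9 to 18.0 percentile points and by −0.30 to 0.29 in log2 pileup, and the HS2 difference of −0.29 lay just inside the range for pileup. HS1 (−0.31), HS3 (−0.41) and HBZ (−0.33) lay below it and LMO2 (0.29) just above it, and none of these was called. Groups without overlap were found by rank in 2.47% of regions on the higher side and 2.61% on the lower side, and by pileup in 2.27% and 1.61%.

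None of the regions with the lowest p on ranks passed the threshold, and some of them had no peak in the equal-length lists of one group. At chr11:118223893-118224180 the percentile was 36.6, 44.5 and 21.7 with Cr10, against 0 in all 3 libraries without a gRNA (limma p = 0.000428, adjusted p = 1; exact permutation p = 0.1). At chr10:128075617-128075877 it was 0 in all 3 Cr10 libraries, against 15.3, 26.5 and 31.1 without a gRNA (limma p = 0.000464, adjusted p = 1; exact permutation p = 0.1). The median over the other 9 libraries was 0 at both. A strong peak among them, at chr19:12250710-12251618, ranked at 93.0, 92.1 and 93.4 with Cr10, against 80.2, 86.6 and 84.8 without a gRNA, with a median of 89.4 in the other 9 libraries (limma p = 0.00120, adjusted p = 1; exact permutation p = 0.1). Its counterpart at chr11:18512622-18513074 ranked at 80.7, 83.7 and 85.1 with Cr10, against 91.8, 94.6 and 93.2 without a gRNA, with a median of 87.3 in the other 9 (limma p = 0.000848, adjusted p = 1; exact permutation p = 0.1).

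By pileup, the lowest p on the higher side was at chr11:98891172-98891846, with −0.40, −1.12 and −1.27 in Cr10 libraries, against −2.02, −1.39 and −1.75 without a gRNA (difference 0.79, limma p = 0.00270, adjusted p = 1.00; exact permutation p = 0.1). On the lower side it was at chr2:217257890-217258593, with −0.91, −0.89 and −0.69 in Cr10 libraries, against −0.22, −0.46 and −0.05 without a gRNA (difference −0.59, limma p = 0.00187, adjusted p = 1.00; exact permutation p = 0.1). Both regions had peaks in all 15 libraries, and the median of the other 9 libraries was −1.31 at the first and −0.64 at the second.

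Peaks held by every library of one group and in none of the other were rare. In the deposited lists, 47 of 106599 regions (0.0441%) had a peak in all 3 Cr10 libraries and in none without a gRNA, and 49 (0.0460%) the reverse. In lists of equal length the numbers were 102 (0.145%) and 122 (0.174%) of 70225. Single regions were not tested, since 3 against 3 cannot go below 0.1. Requiring fewer lists raised the 47 to 1117 without replicate 1 of Cr10, 267 without its replicate 2, and 71 and 743 without replicates 1 and 2 of the controls. It raised the 49 to 96 and 1268 without replicates 2 and 3 of Cr10, and to 319, 85 and 552 without replicates 1, 2 and 3 of the controls. These regions were weak: their median pileup was 25 fragments in the Cr10 libraries that held the 47 and 22 in the control libraries that held the 49, against 49 with Cr10 and 48 without a gRNA over all peaks. The strongest of the 47, at chr1:117112488-117112730, had 36, 59 and 95 fragments with Cr10 and no peak without a gRNA. The strongest of the 49, at chr17:46625680-46625967, had no peak with Cr10, against 69, 75 and 46 fragments without a gRNA.

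Both kinds of region also occurred in the remaining groups. The 47 had a peak in a median of 3 of the other 9 libraries and the 49 in a median of 4, and regions found in any 3 of the 6 libraries had a median of 4 (n = 9387). None of the 47 was missing from all 9 other libraries, and 2 of the 49 were. The strongest of the 47 had a peak in 4 of the other 9 libraries, and the strongest of the 49 in 6.

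**Figure D5:**
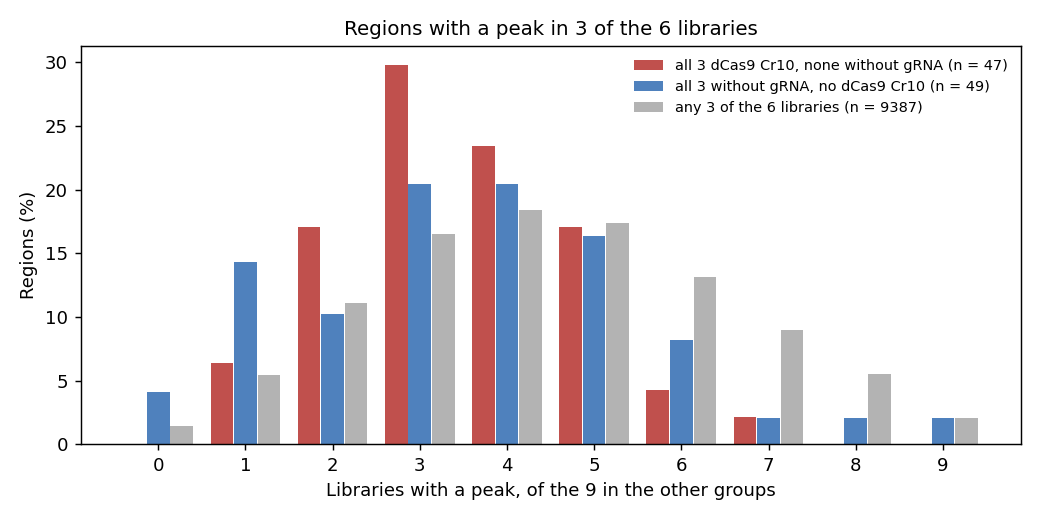
Share of regions (%) by the number of the other 9 libraries that also held a peak, for the 47 regions with a peak in all 3 dCas9 Cr10 libraries and none without a gRNA (red), the 49 with the reverse (blue) and the 9387 with a peak in any 3 of the 6 libraries (grey). None of the red regions and 2 of the blue ones were missing from all 9.

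Most accessible regions were shared. A peak in all 6 libraries was found at 42099 regions, which were 91.3% of the 46113 regions held by all 3 Cr10 libraries and 85.2% of the 49432 held by all 3 libraries without a gRNA. Regions in a single library numbered 24526, of which replicate 3 of Cr10 held 12942 and replicate 2 without a gRNA 7722; these are the deepest libraries. In lists of equal length, the Jaccard index, the overlap of 2 lists divided by their union, averaged 0.664 over the 6 pairs within groups (0.608 to 0.697) and 0.686 over the 9 pairs between groups (0.623 to 0.767). The closest pair was replicate 3 of Cr10 with replicate 2 without a gRNA, each the library with the highest median background of its group.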

How the data were processed

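The submitters' processing notes name CASAVA 1.3, BWA, bedtools and the build hg19, without their roles. What called the peaks, and at which threshold, is not given in the sources used here. Each library was deposited by the authors as a list of peaks. The fold column was deposited as a ratio of summit enrichment to local background, the p-value and q-value columns as −log10, and the score column as a whole number derived from the q-value. Each fold is thus a value of the authors.

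Fold and p-value together gave the summit pileup k and background λ, with fold = (k + 1)/(λ + 1) and a Poisson p, for 100% of peaks within 0.01 in −log10 p, against 3.76% to 5.52% when p-values were moved at random. This scale assumes columns of the MACS type, whose prefix the peak names carry. Rank percentiles came from the 53098 strongest peaks by fold of each list on the autosomes and X, merged with at least 1 bp of overlap into 78352 regions; 62858 of them, found in at least 3 lists, were tested. Limma 3.58.1 fitted all 15 libraries in 5 groups using its trend option, and Benjamini-Hochberg adjustment ran over all regions at 0.05. Exact permutation tests were two-sided. The script was tested on simulated data. Python 3.11.15, numpy 2.4.6, pandas 2.3.3, scipy 1.17.1 and R 4.3.3 were used.

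The members, sites and lists were chosen with earlier results of these data known. Named are HS2, the 32 fixed windows, and, since no region passed the threshold, regions from the 5 of lowest limma p in each direction and measure, with those of highest pileup among regions that every library of one group, but no library of the other, held. Some of these are given as part of a range or not printed, and some loci are not reported here. Alternatives covered list length, scale, ranking column, merging, filters, limma settings, scaling, a replicate block and the omission of each library in turn.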

Additional observations from a re-analysis of the deposited data

How the results depend on the processing

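No region was called by pileup under any of the 11 settings run, with 0 to 1222 regions at an unadjusted p of 0.05. By rank, 0 were called under all of the 16 settings except without replicate 3 of Cr10, where 1 was (0 to 1 over the libraries left out). Leaving out one library at a time, HS2 ranged from −6.61 to 10.6 percentile points, from −0.49 to −0.18 in log2 pileup, from −22.5 to 1.5 bp in width and from −0.33 to 10.7 bp in summit position. HS2 was −4.83 points when ranked by the p-value column, and 0.029 in log2 pileup against HS1, HS3 and HS4, a setting added after seeing the data.

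Regions in all 3 and none moved to 102 and 122 in lists of equal length, and leaving out one library gave 61 to 1117 with Cr10 and 55 to 1268 without a gRNA, since fewer lists must then match. By rank, signs reversed in the deposited lists at HS1 (−2.58) and HS4 (−0.41), by the p-value column at HS1 (−7.88), HS4 (−4.58), HS5 (−0.80), HBG2 (−2.69) and HBD (−1.23), and on log2 ranks at 3' HS1 (0.23). The cause was not tested. Leaving out one library gave ranges of −9.81 to 9.32 at HS1, −4.47 to 8.18 at HS4, −0.95 to 11.1 at HS5, −4.20 to 4.83 at 3' HS1, −4.20 to 5.03 at HBG2 and −1.05 to 4.25 at HBD in rank, and −0.55 to 0.059 at HS1, −0.40 to 0.079 at HS4, −0.30 to 0.29 at HS5, −0.31 to 0.18 at HBG2 and −0.44 to 0.017 at HBG1 in pileup.

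Pairing by replicate number was looked for. In deviations of regions from their group means, same-numbered libraries correlated at 0.036, 0.0018 and 0.031 in rank. In pileup the values were −0.21, 0.026 and 0.089, and no library correlated best with its own number. Depth followed a different order of numbers in each group. These correlations therefore cannot tell whether same-numbered libraries shared a culture or a batch. Such correlations do not measure how alike the whole lists were. With the replicate number as a block, HS2 differed by 1.60 points (sign-flip exact test p = 1) and −0.29 in log2 pileup (p = 0.25, the smallest possible), with 0 regions called. How far depth limited the weak peaks was not tested.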
